A study of Mus musculus with 40 samples.

Results

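The 10 genes described here encode phosphodiesterases that break down cyclic AMP (cAMP): Pde4a, Pde4b, Pde4c and Pde4d of the Pde4 subfamily, Pde7a and Pde7b, Pde3a and Pde3b, Pde8a and Pde10a. They were taken by gene symbol from a table of 55414 genes, and all 10 symbols had 1 row each. By their Ensembl identifiers the 5 that reached appreciable levels lie on chromosomes 9 (Pde4a), 4 (Pde4b), 8 (Pde4c), 13 (Pde4d) and 3 (Pde7a). Expression was measured by RNA sequencing in mpkCCD cells, an immortalized line of the mouse kidney collecting duct that was grown polarized on permeable supports. Every group, the controls included, received the vasopressin analogue dDAVP at 0.1 nM for 72 hours. The 22 libraries comprised 11 of unmodified control clones with the wild-type label, 5 with the genotype label ATF1-KO, 3 with ATF1/CREB1-KO (the double label) and another 3 with ATF1/CREB1/CREM-KO (the triple label), and the 18 samples of a rescue experiment were not analysed here. These 3 factors, the CREB family, bind cAMP response elements in DNA.

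In principal cells of the collecting duct, vasopressin binds its V2 receptor, which activates adenylyl cyclase and raises cAMP. Protein kinase A and Epac respond to that cAMP, and the water channel aquaporin-2 then moves to the apical membrane and its gene is transcribed more. Phosphodiesterases hydrolyse cAMP to AMP and so end the signal, and isoforms held at different places in the cell shape local pools of it. The Pde4 enzymes are specific for cAMP and are blocked by rolipram, the Pde7 enzymes are specific for cAMP and insensitive to rolipram, the Pde3 enzymes are inhibited by cyclic GMP, Pde8a has a high affinity for cAMP, and Pde10a accepts both cyclic nucleotides. In several cell types, transcription of Pde4 genes is itself raised by cAMP, which gives a negative feedback.

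Values are TPM, a transcript abundance that is corrected for transcript length and scaled to the same total in every library, so the read depth behind a value is unknown. Library numbers in the labels form 3 consecutive runs, and each knockout label was compared with the control clones of its own run: control clones 9 to 11 for the triple label, 6 to 8 for the double label and 1 to 5 for ATF1-KO. Nothing in the labels names these runs as batches or tells whether replicates with 1 knockout label were separate clones or separate cultures of 1 clone, so the p-values measure only the spread between these libraries. The 83 genes named as ribosomal proteins accounted for 7.05% to 15.1% of each run 2 library (6 libraries) and for 2.61% to 4.03% in the other 16. Within run 2 their share was 14.2% to 15.1% in the control clones and 13.0%, 12.5% and 7.05% in ATF1/CREB1-KO replicates 1, 2 and 3. From 17296 to 20703 genes had a value above 0 in a library.

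The knockout state rests on the labels. Under the ATF1-KO label, Atf1 mRNA was 26.6 ± 8.88 TPM (SD, n = 5), against 42.2 ± 4.22 (n = 5) in its own-run control clones, and Creb1 mRNA was 18.7 ± 0.593 TPM (n = 3) under ATF1/CREB1/CREM-KO against 37.7 ± 1.61 (n = 3). Crem mRNA was 30.5 ± 4.02 TPM (n = 3) under that label and 22.7 ± 2.48 (n = 3) in its control clones. Atf1 there was at 32.4 ± 8.57 TPM against 40.1 ± 0.389, with ranges that overlapped. Under ATF1/CREB1-KO, Atf1 was at 19.0 ± 4.38 TPM against 24.5 ± 1.53 and Creb1 at 3.39 ± 0.596 against 5.55 ± 0.984. Crem, not named in that label, was at 27.5 ± 16.7 TPM against 10.9 ± 1.95 (n = 3 each). Under ATF1-KO, a label that names neither, Creb1 was at 39.0 ± 1.40 TPM against 30.6 ± 2.39 (n = 5 each). Its ranges did not meet, as for 1.3% of all genes tested there. Crem under ATF1-KO was at 23.6 ± 3.68 TPM against 17.7 ± 4.57 (n = 5 each), with ranges that overlapped. A level of mRNA does not show whether the protein was lost. Of 12 principal cell markers, 7 to 9 had a mean of at least 1 TPM in each group, among them Avpr2, the V2 receptor, while Tfap2b was at 0 in all libraries but 1 labelled ATF1-KO, where it was at 0.10 TPM. Of 7 intercalated cell markers, Foxi1, Atp6v1g3, Slc4a1 and Slc26a4 were at or near 0 in every group, the highest mean of these being 0.113 TPM for Slc4a1, whereas group means ran from 22.5 to 91.1 TPM for Atp6v1b1 and from 2.26 to 13.7 TPM for Aqp6. In these bulk libraries, fewer cells of a type and less RNA per cell cannot be told apart.

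The promoters of the members are shown because the CREB-family factors bind the cAMP response element TGACGTCA and, less strongly, its core TGACG. The RefSeq promoter table (build GRCm38.p6) had 13 windows of 300 bases for 7 of the members, Pde3a, Pde3b and Pde7a having no entry, and both strands were searched. No member window held TGACGTCA, which occurred in 1.79% of the 32851 windows of the same length. The core, which the full element also contains, occurred in 3 of the 13 member windows, 1 each for Pde4a, Pde4b and Pde8a, beside 20.8% of all windows. The 250 bases before the start are printed 5′ to 3′ for the windows of Pde4b and Pde4a that held a match. They are also printed for Pde4c, the other Pde4 gene with a high level. Pde4b and Pde4a passed the test described below against own-run control clones under the triple label. Pde4c and Pde7a did not pass it but also had lower means there, at 57.1% and 48.1% of control. Capitals mark CGTCA, the core read on the opposite strand. All 3 stretches are on the plus strand, at chr4:102421305-102421554 for Pde4b, chr9:21183851-21184100 for Pde4a and chr8:70723814-70724063 for Pde4c.
Pde4b: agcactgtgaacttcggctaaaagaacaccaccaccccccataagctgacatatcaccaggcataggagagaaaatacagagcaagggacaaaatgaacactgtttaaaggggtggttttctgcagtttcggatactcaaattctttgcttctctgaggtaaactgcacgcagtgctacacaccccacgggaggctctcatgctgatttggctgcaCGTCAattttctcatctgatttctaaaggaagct
Pde4a: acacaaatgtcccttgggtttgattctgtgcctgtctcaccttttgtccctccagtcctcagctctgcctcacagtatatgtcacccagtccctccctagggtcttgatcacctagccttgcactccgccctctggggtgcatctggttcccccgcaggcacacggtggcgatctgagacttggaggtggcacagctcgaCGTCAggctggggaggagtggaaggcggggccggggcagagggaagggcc
Pde4c: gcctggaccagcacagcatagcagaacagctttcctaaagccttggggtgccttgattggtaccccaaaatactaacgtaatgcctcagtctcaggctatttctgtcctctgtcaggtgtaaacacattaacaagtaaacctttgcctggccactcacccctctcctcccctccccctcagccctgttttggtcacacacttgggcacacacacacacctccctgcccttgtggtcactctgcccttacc
In the Pde4b stretch the match begins 34 bases before the start, and in the Pde4a stretch 50 bases before it. The other 3 windows of Pde4b, the other 2 of Pde4a and the 1 of Pde4c held no match. These matches are a description of letters in fixed windows, since binding was not measured, and Pde8a, whose window at chr7:81213015-81213314 also held the core, never passed 0.20 TPM.

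Control clones under dDAVP carried Pde7a mRNA at the highest level, followed by Pde4c, Pde4b and then Pde4a and Pde4d. In control clones 1 to 5 the mean levels were 138 ± 53.0 TPM (SD, n = 5) for Pde7a, 37.0 ± 5.60 for Pde4c, 18.4 ± 2.98 for Pde4b, 5.49 ± 1.52 for Pde4a and 3.67 ± 1.25 for Pde4d. Neighbours in that order had ranges that did not meet, except Pde4a and Pde4d. Control clones 9 to 11 gave the same order, with the ranges of Pde4c (30.37 to 42.86 TPM) and Pde4b (29.95 to 32.62 TPM) overlapping although Pde4c was the higher in each of the 3 libraries. In control clones 6 to 8 every one of these genes was lower, at 24.8 ± 1.68 TPM (n = 3) for Pde7a, 9.71 ± 1.11 for Pde4c and 4.31 ± 0.389 for Pde4b, and Pde4d at 1.73 ± 0.229 TPM stood above Pde4a at 1.08 ± 0.157. This is the run in which ribosomal protein genes took the larger share of the TPM, and the part of that share in the lower levels was not tested. Lower levels in this run were not limited to these genes. For ATF1/CREB1-KO, of the same run, the median log2 change over all genes was -0.03 against own-run control clones and -0.96 against all 11. The share of all genes that were lower in control clones 6 to 8 was not computed.

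The other 5 members were barely listed. Pde3a, which is best known from heart and platelets, reached at most 0.01 TPM and was at 0 in 18 of the 22 libraries. Pde3b, best known from fat and liver, reached 0.14 TPM and was also at 0 in 18. Pde8a reached 0.20 TPM and was at 0 in 8 libraries, and Pde7b reached 0.51 TPM and was at 0 in 11. Pde10a, which is most abundant in the striatum of the brain, reached 1.43 TPM and was at 0 in 5. None of these 5 had a mean of 1 TPM in any of the 3 comparisons, so none entered a test across genes.

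**Figure D1:**
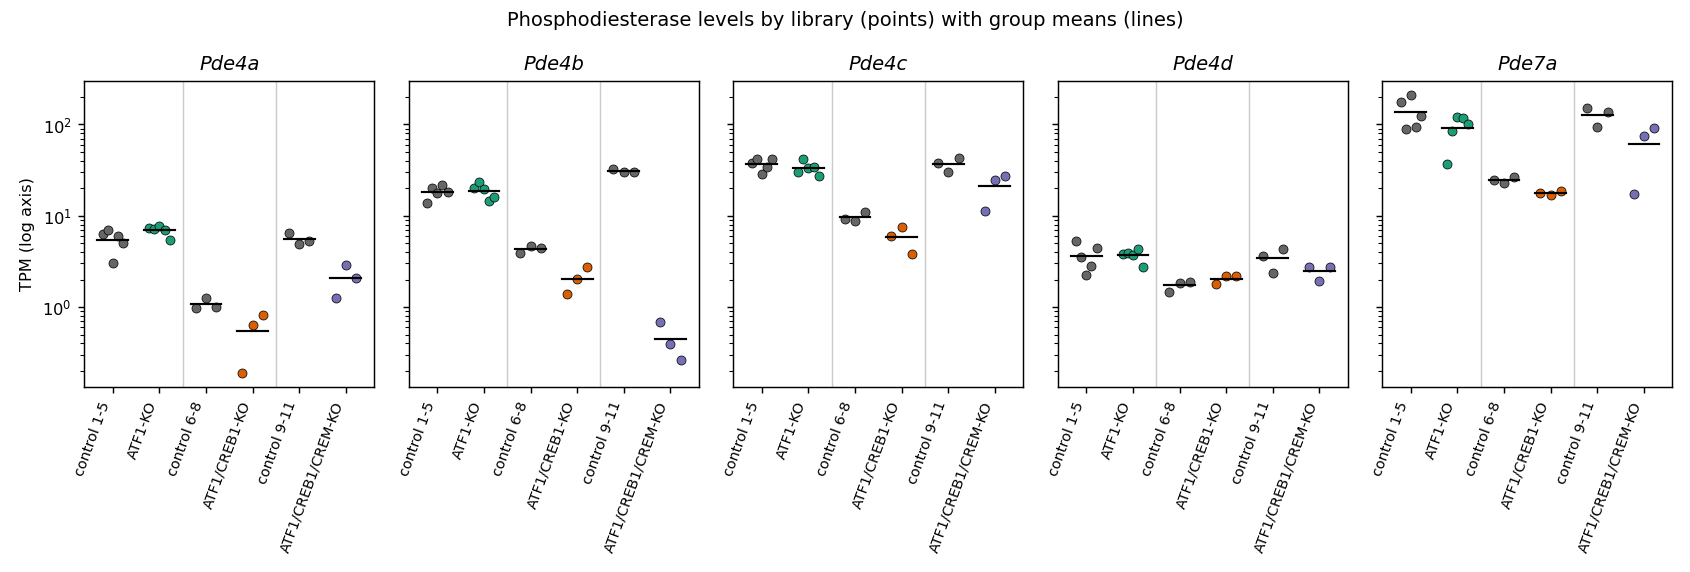
Levels of Pde4a, Pde4b, Pde4c, Pde4d and Pde7a in TPM (log axis), 1 point per library and a line at each group mean, with grey points for control clones and a thin vertical line between runs. Pde4b lay at 29.95 to 32.62 TPM in control clones 9 to 11 and at 0.26 to 0.69 TPM in the libraries labelled ATF1/CREB1/CREM-KO. All 5 genes were lower in control clones 6 to 8 than in the other control clones, in a run where lower levels were not limited to them.

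Loss of all 3 factors was addressed by the libraries labelled ATF1/CREB1/CREM-KO. Pde4b, whose product is one of the main cAMP-specific enzymes, nearly disappeared from these libraries, Pde4a fell to 37.6% of its control level, and Pde4c, Pde7a and Pde4d did not pass the test. Differences were tested with limma on log2(TPM + 1), leaving out genes whose mean was under 1 TPM, with Benjamini-Hochberg adjustment over all 13258 genes, and a gene was called where the adjusted p was under 0.05. That gave 1216 called genes, or 9.17% of those tested, of which 698 were lower (5.26%). Of the 5 members tested, 2 were called, both lower.

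Pde4b was at 32.62, 30.12 and 29.95 TPM in control clones 9, 10 and 11. Under ATF1/CREB1/CREM-KO it was at 0.69, 0.39 and 0.26 TPM in replicates 1, 2 and 3. Every control clone was high and every knockout library was low, with no overlap. The means of 30.9 ± 1.49 and 0.447 ± 0.221 TPM (SD, n = 3 each) put the knockout label at 1.45% of control, 69.2-fold lower. On the log2(TPM + 1) scale Pde4b fell by 4.47 (SE 0.17, adjusted p 4.13e-04 in limma), the smallest unadjusted p of all 13258 genes. The change was called in each of the 6 fits that left out 1 library, with values from -4.59 to -4.38.

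Pde4a, a cAMP-specific enzyme that like Pde4b has long and short forms, was at 6.46, 4.89 and 5.31 TPM in control clones 9 to 11. It was at 1.25, 2.92 and 2.10 TPM in the 3 knockout libraries, all of them below every control clone. The means were 5.55 ± 0.813 and 2.09 ± 0.835 TPM (n = 3 each), and Pde4a fell by 1.11 on the log2(TPM + 1) scale (SE 0.25, adjusted p 0.0410 in limma). This call is near the threshold: it was lost without control clone 9 (adjusted p 0.155), control clone 10 (0.0963), control clone 11 (0.127), knockout replicate 2 (0.0585) or knockout replicate 3 (0.109), and stood without knockout replicate 1 (0.0215). It was also lost with no filter on low values (adjusted p 0.104) and against all 11 control clones (adjusted p 0.683).

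Pde4c, which is found in the kidney and has been placed at the primary cilium of collecting duct cells, was at 37.91, 30.37 and 42.86 TPM in control clones 9 to 11. In the knockout libraries it was at 11.29, 24.65 and 27.56 TPM. All 3 lay below every control clone, and replicate 1 stood well under the other pair. The change was -0.86 (SE 0.32), and its adjusted p in limma was 0.150. In a fit of all 22 libraries with run as a covariate, which shares 1 estimate of the spread among all groups, the same change had an adjusted p of 0.0463. That fit called 1066 of 13295 genes for this label (8.02%), among them 3 members, Pde4b, Pde4a and Pde4c.

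Pde7a, the member with the highest level, was at 151.50, 94.42 and 136.65 TPM in control clones 9 to 11. Its knockout values were 17.27, 75.04 and 91.61 TPM, again all below the controls, with replicate 1 far below replicates 2 and 3. The change was -1.32 with a standard error of 0.59, and the adjusted p in limma was 0.208. Without knockout replicate 1 the changes came to -0.59 for Pde7a and -0.48 for Pde4c, and neither was called (adjusted p 0.0802 and 0.0635). That replicate had the lowest Pde7a, Pde4c and Pde4a of the 3 and the highest Pde4b.

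Pde4d, whose product has been linked to vesicles that carry aquaporin-2, was at 3.61, 2.39 and 4.30 TPM in the control clones and at 2.77, 1.93 and 2.73 TPM in the knockout libraries. The ranges overlapped, and the change of -0.34 (SE 0.24) had an adjusted p of 0.407 in limma. Pde10a was at 1.23, 0.29 and 1.43 TPM in control clones 9 to 11 and was listed at 0 in all 3 knockout libraries. Pde7b was at 0 in the knockout libraries and in 2 of the 3 control clones, Pde3a and Pde3b were at 0 in all 6 libraries, and Pde8a had a mean of 0.113 TPM in the knockout libraries and 0.0300 in the control clones. Counting values alone, Pde4a, Pde4b, Pde4c and Pde7a, 4 of the 5 members tested, had every knockout library below every control clone, and so did 20.2% of all 13258 genes. The median change was -1.11 over the 5 members tested and -0.05 over all genes tested.

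Other values moved with these in the same libraries. Aqp2, the gene of aquaporin-2, was at 15.5 ± 0.499 TPM (n = 3) in these knockout libraries, against 1516 ± 825 TPM (n = 3) in control clones 9 to 11. The summed level of the 12 principal cell markers ran from 1571 to 3650 TPM in the control clones and from 609 to 1396 TPM in the knockout libraries, and Aqp2 made the largest part of that difference. The other markers went both ways. The mean of Fxyd4 was 529 ± 192 TPM in the control clones and 142 ± 141 in the knockout libraries. Means in the same order were 216 ± 5.93 and 166 ± 22.9 for Gata3, and 189 ± 32.2 and 144 ± 6.46 for Avpr2. Those of Scnn1a were 153 ± 7.01 and 153 ± 28.7, and those of Scnn1g 20.9 ± 9.24 and 26.3 ± 9.81. Aqp3 had 4.64 ± 2.15 and 8.39 ± 3.42, and Hsd11b2 64.0 ± 7.18 and 216 ± 297 (n = 3 each). Ranges did not meet for Fxyd4, Gata3 and Avpr2, which were lower, and for Aqp3, which was higher. In 20.2% of all genes tested here, every knockout library lay below every control clone. The share with every knockout library above is not given here. Of the 7 intercalated cell markers, whose summed level ran from 89.25 to 113.99 TPM in the control clones and from 68.24 to 101.75 TPM in the knockout libraries, Atp6v1b1 overlapped between the groups, and Aqp6 was at 9.28 to 20.78 and 0.67 to 3.22 TPM. Among 3 leukocyte markers Cd68 was at 4.89 to 7.75 and 1.88 to 2.97 TPM, while Ptprc was at 0.40 TPM or less and Cd3e was at 0. Among 5 proximal tubule markers Lrp2 was at 19.82 to 21.53 and 1.10 to 25.20 TPM, and no other of these, nor any of 4 fibroblast markers, reached a mean of 1 TPM in either group. The part of these values in the lower Pde4b and Pde4a was not tested.

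Loss of ATF1 and CREB1 together was addressed by the libraries labelled ATF1/CREB1-KO. Pde7a, Pde4c and Pde4b had lower means than in control clones 6 to 8 and Pde4d a higher one, and none of these 4 passed the test. Pde4a also had a lower mean but was below the level needed for testing in this own-run comparison. Of 12579 genes tested with limma, 9 were called (0.0715%), 4 higher and 5 lower, and no member was among them. At an unadjusted p under 0.05 there were 1199 genes (9.53%), including 3 of the 4 members tested.

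Pde4b was at 3.87, 4.61 and 4.45 TPM in control clones 6, 7 and 8 and at 1.39, 2.01 and 2.75 TPM in the 3 knockout libraries. The groups did not overlap, and the highest knockout library was still below the lowest control clone. The means were 4.31 ± 0.389 and 2.05 ± 0.681 TPM (n = 3 each), or 47.6% of control, and the change of -0.82 (SE 0.23) had an adjusted p of 0.371 in limma. With all 22 libraries and run as a covariate, where 609 of 13295 genes were called (4.58%), Pde4b was called with an adjusted p of 0.0155 and was the only member called.

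Pde4c was at 9.30, 8.86 and 10.97 TPM in control clones 6 to 8 and at 6.00, 7.61 and 3.79 TPM in the knockout libraries. Pde7a was at 24.94, 23.12 and 26.47 TPM in the same control clones and at 17.97, 16.88 and 18.50 TPM in the knockout libraries. Neither gene's groups overlapped, and both were lower in all 3 knockout libraries. The changes were -0.69 (SE 0.25, adjusted p 0.475 in limma) for Pde4c and -0.46 (SE 0.17, adjusted p 0.483) for Pde7a.

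Pde4a was at 0.97, 1.26 and 1.01 TPM in the control clones and at 0.19, 0.63 and 0.81 TPM in the knockout libraries. It did not overlap either, but its mean over the 6 libraries was under 1 TPM, so it was not tested in the own-run fit. In the fit of all 22 libraries with run as a covariate its change was -0.45 (SE 0.24, adjusted p 0.293 in limma). Pde4d was at 1.47, 1.84 and 1.89 TPM in the control clones and at 1.77, 2.19 and 2.19 TPM in the knockout libraries. Its ranges overlapped, and it was the tested member with a positive change, 0.16 (SE 0.21, adjusted p 0.826 in limma). Pde7b was at 0.06, 0.20 and 0.05 TPM in the control clones and at 0.42, 0.22 and 0.51 TPM in the knockout libraries, a separation at levels too low to be tested, in a comparison where 6.67% of tested genes had every knockout library above every control clone. Of the 4 members tested, 3 had every knockout library below every control clone, as did 12.4% of all genes, and the median change was -0.58 over those 4 members and -0.03 over all genes tested. The share of ribosomal protein genes in ATF1/CREB1-KO replicate 3 was lower than in the other libraries of the run, and without that library the change was -0.98 for Pde4b, -0.46 for Pde4c, -0.49 for Pde7a and 0.12 for Pde4d, none of them called.

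Loss of ATF1 alone was addressed by the libraries labelled ATF1-KO, 5 against 5. No member was called, and no gene of the 13318 tested was called by limma in this comparison (0%), while 1014 genes (7.61%) had an unadjusted p under 0.05, none of them a member. Pde4b was at 13.80, 20.08, 17.88, 21.75 and 18.24 TPM in control clones 1 to 5 and at 20.08, 23.18, 19.77, 14.49 and 15.93 TPM in ATF1-KO replicates 1 to 5. These ranges lay almost on top of each other, with a change of 0.02 (SE 0.15, adjusted p 0.978 in limma).

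Pde7a was at 174.25, 88.14, 210.58, 94.24 and 122.65 TPM in control clones 1 to 5 and at 37.15, 84.77, 120.59, 118.96 and 101.08 TPM in ATF1-KO replicates 1 to 5. Replicate 1 was far below the rest, and the other knockout values lay among or just under the control values. The change was -0.60 (SE 0.34, adjusted p 0.704 in limma), and it was -0.30 without replicate 1. The changes of the other members tested were 0.33 (SE 0.18, adjusted p 0.699) for Pde4a, -0.15 (SE 0.13, adjusted p 0.781) for Pde4c and 0.04 (SE 0.19, adjusted p 0.967) for Pde4d. All 5 members overlapped between the groups, in a comparison where 1.3% of all genes did not.

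**Figure D2:**
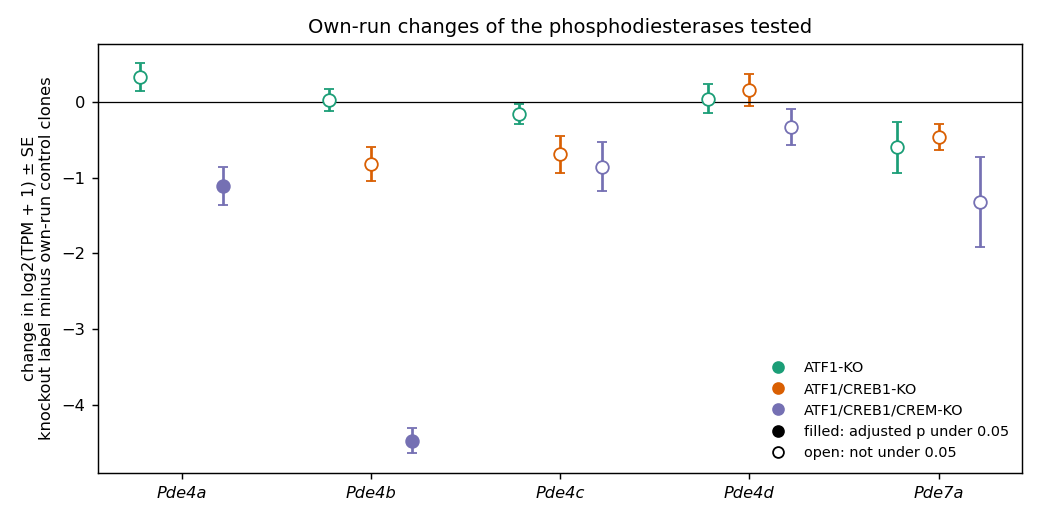
Change of each tested member on the log2(TPM + 1) scale, knockout label minus own-run control clones, with bars of 1 standard error, filled points where the adjusted p was under 0.05 and open points elsewhere. The filled points are Pde4b at -4.47 and Pde4a at -1.11 under ATF1/CREB1/CREM-KO, and Pde4a has no point under ATF1/CREB1-KO because it was not tested there.

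Whether a member changed by a different amount under one label than under another was tested as a difference of own-run changes in the fit of 22 libraries. Each knockout label occurs in a single run, so a difference between labels cannot be told apart from a difference between runs in the size of a change. Between ATF1/CREB1/CREM-KO and ATF1/CREB1-KO, 25 of 13295 genes differed (0.188%), and Pde4b, with a difference of -3.65 (SE 0.26, adjusted p 2.15e-07 in limma), had the smallest p of all. It was the only member called in that contrast. Because Pde4b was low in control clones 6 to 8, its fall there could not exceed 2.41 on the log2(TPM + 1) scale, against 4.99 in run 3. On the plain scale the 3 ATF1/CREB1-KO libraries kept 32.3%, 46.6% and 63.8% of their control mean, and the 3 ATF1/CREB1/CREM-KO libraries 2.23%, 1.26% and 0.842%. With a pseudocount of 0.1 TPM, which lowers that floor, the difference was -4.82 (adjusted p 4.90e-07).

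Between ATF1/CREB1/CREM-KO and ATF1-KO, 475 genes differed (3.57%), including Pde4b with -4.49 (SE 0.24, adjusted p 3.24e-10) and Pde4a with -1.44 (SE 0.30, adjusted p 0.00956). Pde4c, Pde4d and Pde7a were not called in that contrast, with differences of -0.70, -0.38 and -0.72 and adjusted p from 0.313 to 0.660. Between ATF1/CREB1-KO and ATF1-KO, 194 genes differed (1.46%) and no member was called. Pde4b came nearest, with -0.84 (SE 0.24, adjusted p 0.0809), and was called when libraries were scaled by median ratios (-1.01, adjusted p 0.0171).

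The sum of the 10 genes is a measure of all the transcript listed for them, weighted towards Pde7a. It came to 203 ± 46.2 TPM (SD, n = 5) for control clones 1 to 5, 42.1 ± 2.54 (n = 3) for clones 6 to 8 and 205 ± 37.7 (n = 3) for clones 9 to 11. The libraries labelled ATF1-KO summed to 155 ± 34.2 TPM (n = 5), or 76.6% of control, with ranges that overlapped. Those labelled ATF1/CREB1-KO summed to 28.8 ± 0.724 TPM (n = 3), or 68.5%, and those labelled ATF1/CREB1/CREM-KO to 33.45, 105.06 and 124.29 TPM, or 42.6%, all below every control clone of their run. Two-sided exact permutation tests of the sum gave p = 0.127, 0.1 and 0.1, and 0.1 is the smallest value that 3 against 3 libraries allow. Adjusted over the 33 tests of sums and shares, these were 0.419, 0.4125 and 0.4125. Without Pde7a the sums stood at 97.0%, 64.0% and 33.7% of control.

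Shares show which isoform made up that sum. Pde7a held 66.2% ± 10.4, 59.0% ± 1.97 and 61.7% ± 3.44 of it in the control clones of runs 1, 2 and 3. Its share was 57.6% ± 12.6 under ATF1-KO, 61.8% ± 4.09 under ATF1/CREB1-KO and 65.6% ± 12.1 under ATF1/CREB1/CREM-KO, so it stayed the main isoform by level in the mean of each group. The Pde4 subfamily held 37.9% ± 3.59 in control clones 9 to 11 and 34.2% ± 11.9 under ATF1/CREB1/CREM-KO (n = 3 each).

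Within that subfamily the makeup differed. Pde4b made up 40.4% ± 4.05 of the summed Pde4 TPM in control clones 9 to 11 and 2.14% ± 1.90 under ATF1/CREB1/CREM-KO, while Pde4c made up 48.0% ± 3.68 and 79.1% ± 7.50 (n = 3 each). As shares of all 10 genes, Pde4b went from 15.4% ± 2.75 to 0.881% ± 1.03 and Pde4c from 18.1% ± 1.67 to 26.5% ± 6.35. Every knockout library lay below the control clones for Pde4b and above them for Pde4c, with the lowest exact permutation p that 3 against 3 allow, 0.1 (0.4125 adjusted over the 33 tests). The level of Pde4c was itself lower in the libraries where its share was larger, and shares of 1 library sum to a fixed total. Under ATF1/CREB1-KO the share of Pde4d was 7.11% ± 0.715 against 4.12% ± 0.480 in control clones 6 to 8 (n = 3 each), above every control clone, again with an exact permutation p of 0.1.

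The order of the levels differed accordingly in the libraries labelled ATF1/CREB1/CREM-KO, which ran Pde7a, Pde4c, Pde4d, Pde4a, Pde4b. Pde4b was the lowest of these 5 genes in each of the 3 libraries, and its range did not meet that of Pde4a. The ranges of Pde4d and Pde4a overlapped. Under ATF1/CREB1-KO, Pde4d and Pde4b had the same mean of 2.05 TPM.

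**Figure D3:**
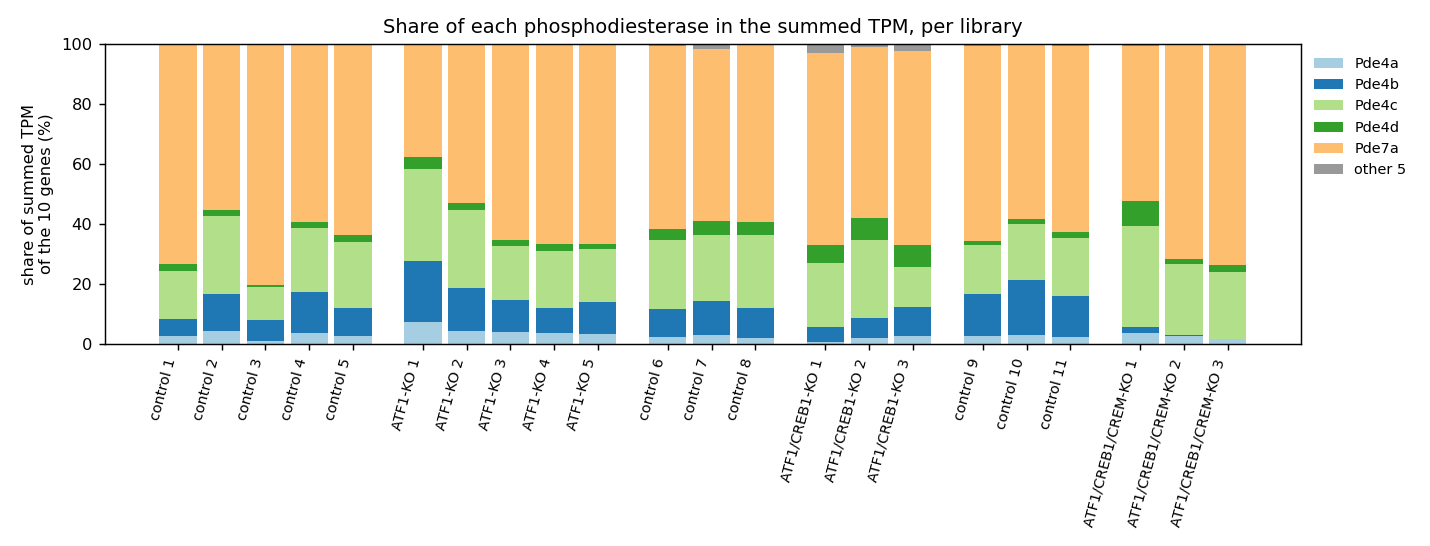
Share of each phosphodiesterase in the summed TPM of the 10 genes (percent, stacked to 100), 1 bar per library, with Pde3a, Pde3b, Pde7b, Pde8a and Pde10a drawn together as the other 5. Pde4b takes 15.4% on average in control clones 9 to 11 and 0.881% in the libraries labelled ATF1/CREB1/CREM-KO, where Pde4c takes 26.5%.

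Genes that make and read cAMP were examined beside the enzymes that break it down. The list of 26 genes of cAMP production and protein kinase A, from Avpr2 and the adenylyl cyclases to the kinase subunits and the Epac genes, had 16, 14 and 15 members tested under ATF1-KO, the double label and the triple label. None was called under the first and the second label by limma, where 1 gene each had an unadjusted p under 0.05. Under ATF1/CREB1/CREM-KO 2 of 15 were called, both lower, beside the 9.17% of all genes called there. Prkacb, which encodes a catalytic subunit of protein kinase A, was at 32.6 ± 3.47 TPM (range 30.10 to 36.57) against 53.8 ± 4.47 (range 50.23 to 58.81) in control clones 9 to 11, a fall of 0.71 (SE 0.11, adjusted p 0.0158). Rapgef3, which encodes the cAMP sensor Epac1, was at 45.1 ± 3.70 against 69.8 ± 12.1 TPM (n = 3 each) and fell by 0.61 on the log2 scale (SE 0.14, adjusted p 0.0432), a call that was not made in the fit with run as a covariate. The median change of the list was -0.06, beside -0.05 for all genes.

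Proteins that anchor phosphodiesterases and protein kinase A formed a list of 17 genes, of which 16 were found and 12, 11 and 12 tested. The single gene called against own-run control clones was Pde4dip under the triple label, 1 of 12 beside the 9.17% of all genes called there. Its product, myomegalin, is a centrosomal and Golgi protein that binds Pde4d. Pde4dip rose under ATF1/CREB1/CREM-KO from 35.9 ± 9.14 to 62.7 ± 2.40 TPM (n = 3 each), with a change of 0.82 (SE 0.19, adjusted p 0.0463 in limma) and ranges that did not meet. The fit with run as a covariate called Pde4dip too, and called 2 anchoring genes lower that the own-run fits did not: Akap11 under ATF1/CREB1/CREM-KO (-1.25, adjusted p 0.00746, 12.80 to 34.80 against 41.61 to 49.37 TPM) and Akap10 under ATF1/CREB1-KO (-0.50, adjusted p 0.0369, 4.67 to 7.68 against 9.02 to 9.93 TPM). Of 11 further phosphodiesterase genes outside the 10, no more than 3 had a mean of at least 1 TPM in any comparison, and none was called. Under ATF1/CREB1/CREM-KO the 3 tested had a median change of 0.73, beside -0.05 for all genes. The 1 tested under ATF1-KO changed by -0.52.

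Genes whose pattern was most like that of Pde4b were found by the root mean square difference in own-run change over the 11 knockout libraries, among 11795 genes. The nearest was Guf1 at 0.580, a mitochondrial elongation factor, followed by Nubpl at 0.593, an assembly factor of respiratory complex I, Gpam at 0.626, an enzyme of triglyceride synthesis, and 3830406C13Rik at 0.736, all on the log2(TPM + 1) scale. Guf1, like Pde4b, was near its control level under ATF1-KO (22.5 against 23.9 TPM) and nearly absent under ATF1/CREB1/CREM-KO (0.230 against 22.9 TPM). Under ATF1/CREB1-KO it was at 0.370 TPM against 4.12, a lower part of its control level than Pde4b kept. Gpam was at 0.310 TPM against 3.62 under that label and at 0.373 against 24.9 under ATF1/CREB1/CREM-KO.

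**Figure D4:**
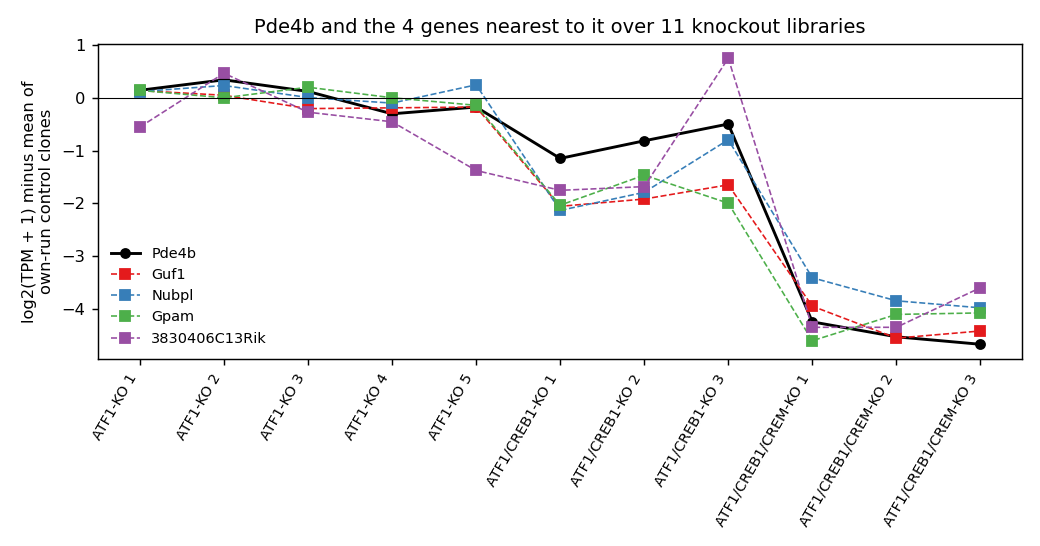
Own-run difference on the log2(TPM + 1) scale of Pde4b (black) and the 4 genes nearest to it, over the 11 knockout libraries, each library minus the mean of its own-run control clones; the connecting lines only guide the eye. Pde4b, Guf1, Nubpl and Gpam lie near 0 in the libraries labelled ATF1-KO, where 3830406C13Rik runs from -1.38 to 0.46. All 5 genes lie far below 0 in those labelled ATF1/CREB1/CREM-KO. Under ATF1/CREB1-KO Pde4b lies nearer to 0 than Guf1, Nubpl and Gpam.

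For Pde4a the nearest genes were Ddx28 at 0.218, 1810055G02Rik at 0.247, Spag4 at 0.247 and Mmut at 0.248. Ddx28, a mitochondrial RNA helicase, was at 26.6 TPM under ATF1-KO against 21.3 in its control clones, at 2.65 against 3.85 under ATF1/CREB1-KO and at 10.4 against 20.5 under ATF1/CREB1/CREM-KO. Likeness was measured on the same libraries and says nothing of shared control.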

How the data were processed

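The deposited values are TPM per gene. Per the submitters' processing notes the authors used STAR and RSEM, whose versions, genome build and annotation are not given in the sources used here. Libraries were made with a SMARTer kit and Nextera XT, per the labels' protocols. The depth is unknown, so no counting interval is given. Chromosomes and promoters came from GRCm38 tables matched by identifier or symbol.

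Log2(TPM + 1) was tested with limma 3.58.1 (lmFit, eBayes with trend) in R 4.3.3, leaving out genes whose mean over the compared libraries was under 1 TPM. P-values were adjusted by Benjamini-Hochberg over every gene tested, with a threshold of 0.05. When tested on simulated data in which 200 genes moved by 2 (log2), it recovered 197, 142 and 182 of them among 13121, 12280 and 12957 genes for ATF1-KO, the double and the triple label, with 4.83%, 5.33% and 5.7% false calls. The moved genes were drawn only from genes with control means above those of Pde4a and Pde4d and, in run 2, of Pde4b. Recovery at such lower levels, and of changes smaller than 2, was not tested. Sums and shares had two-sided exact permutation tests over libraries in Python 3.11.15.

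All 10 members were named in every comparison. Pathway genes were named where called against own-run control clones, with Akap10 and Akap11 added after their values were seen, and for Pde4b and each called member the 4 nearest genes. The members and lists were chosen with earlier results of these data known. Alternatives were all 11 control clones, run as a covariate, other scalings, pseudocounts and filters, each library left out, and a replicate block. The sum without Pde7a was added after seeing the data. The 18 rescue samples were not analysed here.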

Additional observations from a re-analysis of the deposited data

Results flagged for a closer look

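A test of the difference between knockout labels in the change from own-run control clones picked out 3 values, all negative and all with ATF1/CREB1/CREM-KO as the first label. The change of Pde4b differed from that under ATF1/CREB1-KO by -3.65 on the log2(TPM + 1) scale, where the low level of Pde4b in control clones 6 to 8 limits the fall in that run to 2.41. The change of Pde4b differed from that under ATF1-KO by -4.49, and all 3 libraries labelled ATF1/CREB1/CREM-KO lay lower against their controls than all 5 labelled ATF1-KO. The change of Pde4a differed from that under ATF1-KO by -1.44. Each label came from a single run, so differences between labels cannot be told apart from differences between runs. Groups of 5 libraries were also searched for a single library far from the rest, in 12 groups of values, by the gap of the highest or lowest to its neighbour as a share of the whole range, and none passed Dixon's critical value. Pde7a in ATF1-KO replicate 1, at 37.15 TPM beside 84.77 to 120.59 TPM in the other 4 libraries, was among the values searched and did not reach it.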

How the results depend on the processing

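The call of Pde4b under ATF1/CREB1/CREM-KO stood in every alternative run, from -5.90 with a pseudocount of 0.1 TPM to -3.43 against all 11 control clones. Of 193 recomputed changes of single members from control clones, 171 kept direction and side of the threshold, 5 passed it newly, 7 no longer passed it and 10 changed sign. Differences between knockout labels are not in that count. Among them, Pde4b between ATF1/CREB1-KO and ATF1-KO passed the threshold newly with median-ratio scaling. The cause of these shifts was not tested.

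Against all 11 control clones the median of all genes moved to 0.36, -0.96 and 0.28 for ATF1-KO, the double and the triple label, and changes there are to be read relative to it. Under ATF1-KO, Pde4c turned to 0.34 and Pde7a to 0.056. Under ATF1/CREB1-KO, Pde4d turned to -0.36, 4260 genes and 4 members were called, and the log2 ratio of the sum went from -0.55 to -2.47. Under ATF1/CREB1/CREM-KO 137 genes and 1 member were called.

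With no filter on low values, ATF1/CREB1-KO had 0 genes called (9 in the reported fit, 12 with a pseudocount of 0.1 TPM) and ATF1/CREB1/CREM-KO had 710 and 1 member. Median-ratio scaling gave 18 genes under ATF1/CREB1-KO. Run as a covariate gave 609 genes and 1 member there. The sum without Pde7a gave a log2 ratio of -0.64 for that label. The lower share of called genes under ATF1/CREB1/CREM-KO was 57.4%, 46.9% with median-ratio scaling and 46.7% with quantile normalization, and both called members were lower in each.

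Leaving out 1 library gave 0 to 1 called genes under ATF1-KO, the 1 without control clone 4, 0 (without replicate 2) to 60 (without replicate 3) under ATF1/CREB1-KO, and 185 (without control clone 9) to 3317 (without replicate 1) under ATF1/CREB1/CREM-KO, with 1 to 2 members called. In such fits the sign of changes near 0 under ATF1-KO turned: Pde4b ran from -0.07 to 0.10, turning to -0.072, -0.0079, -0.057 and -0.0025, and Pde4d from -0.08 to 0.16, turning to -0.080, -0.023 and -0.0033.

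Control clones 1 to 5 and ATF1-KO share replicate numbers, but these did not pair: 0 of 5 same-numbered pairs correlated over 0.1 (-0.103 to 0.0843), and 1 of 5 libraries correlated best with its own number. The replicate block called 0 genes and 0 members. The other labels share no replicate number with their own-run control clones. TPM gives no depth, so the precision of values under 1 TPM is unknown.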
